A study of Mus musculus with 6 samples.

Results

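The 39 genes described here encode parts of the mouse proteasome other than the catalytic beta subunits. They include the alpha ring and the noncatalytic beta subunits of the core, the ATPases and scaffold of the base, and the lid. The chaperones that assemble these parts and a pair of core regulators complete the list. The genes were taken as a list of gene symbols and matched to rows of the count table by Entrez gene ID. All 39 were found among the 27179 genes of the table, and all 39 were abundant enough to be among the 12916 genes tested. The genes of the catalytic beta subunits and of the Psme1 to Psme3 activators lie outside the list.

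RNA was sequenced from an acute myeloid leukemia of mouse, named A/E9a;NRASG12D in the labels after a short splice variant of the AML1-ETO fusion protein and a mutant NRAS. The 3 panobinostat libraries came from C57BL/6 mice given panobinostat, an inhibitor of histone deacetylases, for 3 days, and the 3 vehicle libraries from C57BL/6 mice given vehicle for the same time. In both groups the viable GFP-positive leukemia cells were sorted from the spleen, so both carry the same leukemia and the same marker, and the labels give it as 1 cell line. The sources used here do not give the animals' age, nor whether each library is from a mouse of its own. The p-values therefore cover the variation among these libraries, part or all of which could be technical.

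The proteasome degrades proteins that carry ubiquitin chains. Its core is a barrel of stacked rings, in which outer alpha rings gate the entry and inner beta rings hold the cutting sites; a regulatory particle on the end of the barrel binds the substrate, removes its ubiquitin and threads it in with a ring of ATPases. Mammalian cells adjust the genes of the subunits together, in part through the transcription factor Nfe2l1, and cancers of blood cells are treated with drugs that block the cutting sites.

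Libraries held from 25794869 to 32571961 counts in the panobinostat group and from 27259492 to 29548544 in the vehicle group, and the 39 genes took between 0.411% and 0.479% of them in the panobinostat libraries and between 0.490% and 0.511% in the vehicle libraries. Libraries are numbered here by the leading number of their count column (1, 5 and 6 for panobinostat, 2, 3 and 4 for vehicle). Kit, a receptor of blood progenitors and mast cells, was at 163 to 321 CPM in panobinostat and 210 to 221 CPM in vehicle libraries. CPM are counts scaled to a common library total, with TMM factors between libraries. The myeloid genes Itgam and Mpo stayed at or under 0.489 CPM and 1.135 CPM in all 6 libraries. Of the other leukemia and progenitor markers, Ptprc was at 1.77 to 4.43 CPM in panobinostat and 2.41 to 3.39 CPM in vehicle libraries. Cd34 was at 2.90 to 32.3 CPM in panobinostat and 7.11 to 11.3 CPM in vehicle libraries. Runx1t1 was at 368 to 858 CPM in panobinostat and 277 to 416 CPM in vehicle libraries. The 8 leukemia and progenitor markers summed to between 1599 and 2279 CPM in panobinostat libraries and between 1126 and 1294 CPM in vehicle libraries, without overlap. Of these 8, Gata2 (660 ± 79.4 CPM in panobinostat libraries against 384 ± 46.5 CPM in vehicle libraries, edgeR adjusted p = 0.011) and Gata1 (360 ± 70.8 CPM in panobinostat libraries against 254 ± 7.84 CPM in vehicle libraries, edgeR adjusted p = 0.045), transcription factors of blood progenitors and erythroid cells, were called higher (SD, n = 3 each), and none was called lower. The summed T cell markers, 6 genes, reached at most 1.63 CPM in panobinostat libraries and 1.06 CPM in vehicle libraries, and no listed T cell gene was at 0 in all libraries. Hemoglobin genes took 6.72%, 3.71% and 3.22% of counts in panobinostat libraries 1, 5 and 6, against 0.772%, 0.847% and 0.614% in vehicle libraries 2, 3 and 4. Of 6 tested erythroid markers 5 were called higher, and their sum was highest in panobinostat library 1 (49718 CPM).

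The proteasome genes differed little after panobinostat. Psmg1, an assembly chaperone of the core, was the 1 member that fell, and Psme4, a core activator, the 1 that rose. The remaining 37 did not pass (edgeR's quasi-likelihood test, Benjamini-Hochberg adjusted p under 0.05 over all 12916 genes; a gene that passes is termed called). Among all tested genes 21.0% were called, 9.72% lower and 11.3% higher, against 5.13% of the members. At an unadjusted p under 0.05, without correction, 10 members passed (25.6%, against 36.8% of all tested genes), 7 of them lower (17.9%, against 17.7%) and 3 higher (7.69%, against 19.1%). The log2 difference, panobinostat over vehicle, ran from -0.48 for Psmg1 to 0.45 for Psmf1 over the 39 genes, with a median of -0.08, against a median of 0.01 over all tested genes. Its absolute size had a median of 0.11 in the members and 0.28 in all tested genes. All tested genes include far less counted ones, with panobinostat means down to 0.024 CPM, against 11.2 CPM in the members. No background of matched counts was used here or for the errors, intervals and within-group variation given below. In bulk RNA, fewer cells with a transcript and less of it per cell cannot be told apart.

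These small differences were measured with narrow errors. Standard errors of the members had a median of 0.10 on the log2 scale, against 0.15 over all tested genes, and each member had between 244 and 10794 counts in every library. The 95% interval of the log2 difference lay inside a 2-fold change in either direction for all 39 members (against 69.4% of all tested genes), and inside a 1.5-fold change for 36 of them (92.3%, against 40.9% of all tested genes). The widest interval was that of Psmf1, from 0.02 to 0.88. An interval that includes 0 leaves room for a change of the size it spans and does not show that a gene stayed the same.

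**Figure D1:**
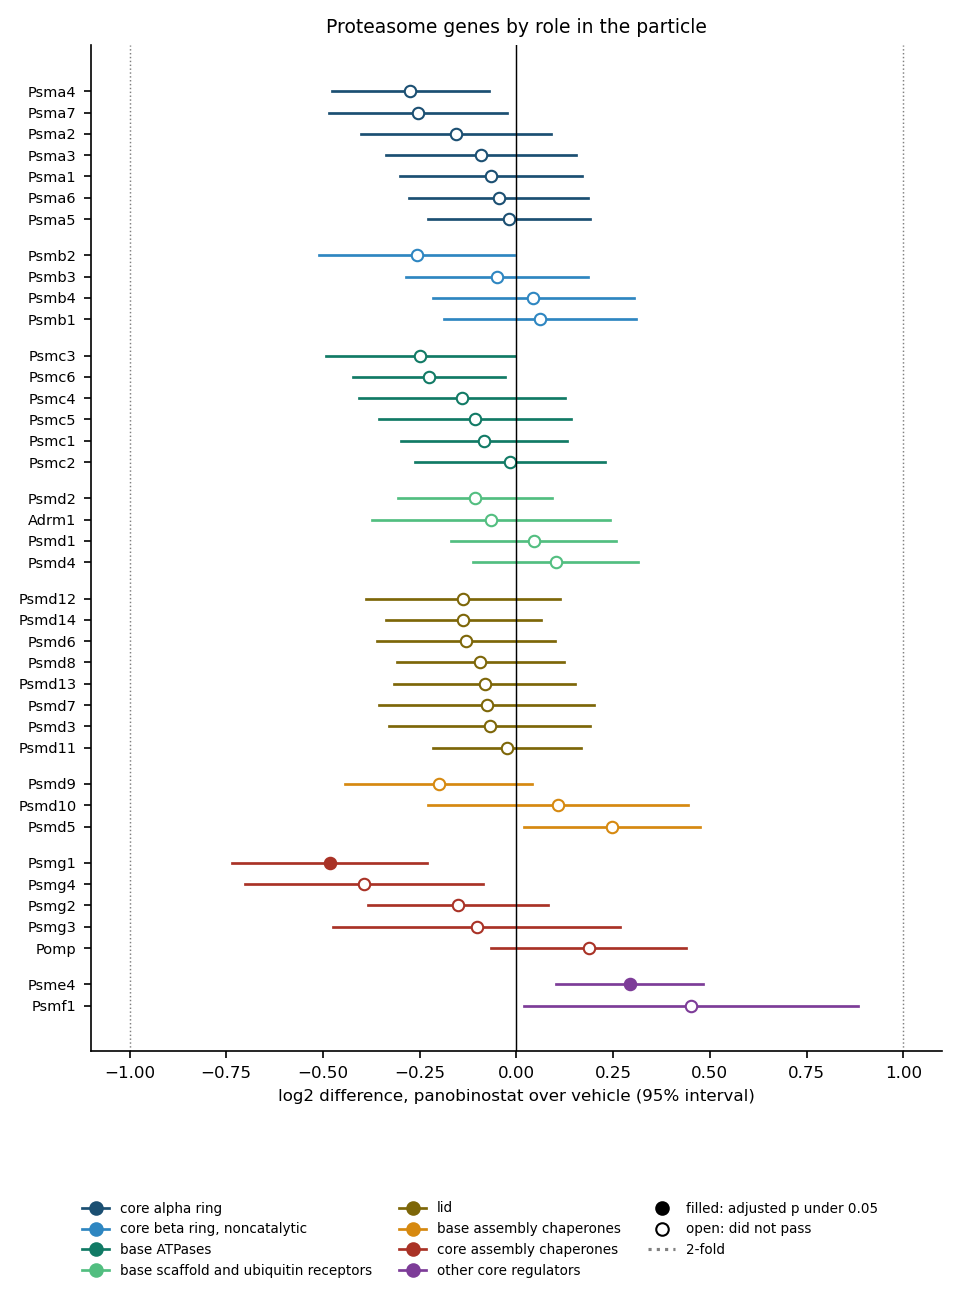
Log2 difference of panobinostat over vehicle (horizontal axis) for each of the 39 proteasome genes, grouped by role, with its 95% interval as a line, a filled point where the adjusted p was under 0.05, and dotted lines at a 2-fold change. Psmg1 and Psme4 are the filled points, and no interval reaches a dotted line.

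Among the members, 30 of 39 had a log2 difference below 0, against 48.9% of all tested genes, and 9 were above 0, against 51.1%. These are not independent counts, since most members vary together from library to library. The 3 panobinostat values lay entirely below the 3 vehicle values in 9 members (23.1%, against 22.7% of all tested genes) and entirely above them in 3 (7.69%, against 21.9%), so that 12 members were free of overlap (30.8%, against 44.6%).

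The alpha ring forms the gate of the core. All 7 of its genes had a log2 difference below 0, from -0.27 to -0.02. None was called by edgeR (0 of 7, with 2 at an unadjusted p under 0.05), 1 was by DESeq2 and 0 by limma-voom. Over all tested genes DESeq2 called 27.6% and limma-voom 20.4%. Psma4 had 178, 179 and 184 CPM in panobinostat libraries 1, 5 and 6, against 204, 218 and 232 CPM in vehicle libraries 2, 3 and 4. The groups did not overlap, and the panobinostat libraries were close to each other, with a log2 difference of -0.27 ± 0.09 (SE, n = 3 each) and an edgeR adjusted p of 0.062, which DESeq2 placed under the threshold. Psma7 had 143, 120.5 and 138 CPM in panobinostat libraries, against 149, 163 and 167 CPM in vehicle libraries, again without overlap (edgeR adjusted p = 0.11). Psma2 overlapped, with 148, 119 and 127 CPM in panobinostat libraries against 152, 139.5 and 147 CPM in vehicle libraries. The other alpha genes, Psma1, Psma3, Psma5 and Psma6, lay between -0.09 and -0.02 on the log2 scale.

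The noncatalytic beta subunits complete the inner rings around the cutting sites. None of the 4 was called (0 by edgeR, DESeq2 and limma-voom, 1 at an unadjusted p under 0.05). Psmb2 had 130.5, 101 and 111.5 CPM in panobinostat libraries, against 136, 135 and 139.5 CPM in vehicle libraries, and was the 1 gene of this ring whose groups did not overlap (log2 difference -0.26 ± 0.11 SE, edgeR adjusted p = 0.13). Psmb1 had 204, 170.2 and 162.5 CPM in panobinostat libraries, against 169, 171 and 174 CPM in vehicle libraries, so panobinostat library 1 was the highest and panobinostat library 6 the lowest of the 6. Psmb3 had 111, 90.2 and 92.5 CPM in panobinostat libraries against 102, 99.1 and 103 CPM in vehicle libraries, with panobinostat library 1 the highest and panobinostat library 5 the lowest of the 6. Psmb4 was the member with the smallest spread among vehicle libraries relative to its mean after Psmd14, at 179 ± 24.6 CPM in panobinostat libraries and 174 ± 0.868 CPM in vehicle libraries (SD, n = 3 each), and it is named after its values were seen.

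The base ATPases unfold the substrate and push it into the core. All 6 had a log2 difference below 0, from -0.25 to -0.02, and none was called (0 by edgeR, DESeq2 and limma-voom, 2 at an unadjusted p under 0.05). Psmc6 had 82.6, 75.1 and 85.6 CPM in panobinostat libraries, against 94.5, 93.4 and 96.8 CPM in vehicle libraries, and Psmc3 had 179, 144 and 155 CPM in panobinostat libraries, against 195, 179 and 194 CPM in vehicle libraries. In both, every panobinostat library was below every vehicle library, for Psmc3 by less than 1 CPM between the nearest libraries. Psmc4 had 123, 93.5 and 106 CPM in panobinostat libraries, against 123, 113 and 119 CPM in vehicle libraries. Psmc1, Psmc2 and Psmc5 overlapped as well.

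The scaffold of the base and the receptors that bind ubiquitin chains held 4 genes, with 0 called by edgeR, DESeq2 or limma-voom and 0 at an unadjusted p under 0.05. Psmd2, a scaffold subunit and the most counted member, had 334, 302 and 311 CPM in panobinostat libraries, against 349, 333 and 338 CPM in vehicle libraries. Psmd4, a ubiquitin receptor, had 170.5, 148 and 147 CPM in panobinostat libraries against 148.5, 144.5 and 141 CPM in vehicle libraries, and Adrm1, another ubiquitin receptor, had 111, 79.4 and 87.8 CPM in panobinostat libraries against 99.8, 92.8 and 98.7 CPM in vehicle libraries. The groups overlapped in all of these and in Psmd1, a scaffold subunit, whose log2 difference was 0.04 ± 0.09 (SE).

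The lid carries Psmd14, the metalloprotease that cuts ubiquitin off the substrate. All 8 lid genes had a log2 difference between -0.14 and -0.02, with 0 called by edgeR, DESeq2 or limma-voom and 0 at an unadjusted p under 0.05. Psmd14 had 120.4, 104 and 109.6 CPM in panobinostat libraries, against 122.5, 122 and 122.5 CPM in vehicle libraries. Its vehicle libraries were nearly equal and all above the panobinostat libraries, with an edgeR adjusted p of 0.28. Psmd6 and Psmd12, both structural subunits of the lid, had 105, 87.1 and 90.9 CPM and 119, 93.2 and 101 CPM in panobinostat libraries, against 100.2, 101 and 109 CPM and 119, 112 and 114 CPM in vehicle libraries. Psmd3, Psmd7, Psmd8, Psmd11 and Psmd13 lay between -0.09 and -0.02 on the log2 scale.

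The assembly factors spread more widely than the subunits. Over the 10 assembly factors and regulators the absolute log2 difference had a median of 0.22, against 0.09 over the 29 subunits of core, base and lid, and 5 were below 0 and 5 above. No test was made of that contrast. The genes that passed and the extremes in both directions all stood among these 10.

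Psmg1 pairs with Psmg2 to build the alpha ring. It had 28.5, 26.1 and 32.3 CPM in panobinostat libraries 1, 5 and 6, against 40.4, 39.3 and 41.8 CPM in vehicle libraries 2, 3 and 4. Every panobinostat library was well below every vehicle library, and the difference was 1.40-fold (log2 -0.48 ± 0.11 SE, 95% interval -0.74 to -0.23, edgeR adjusted p = 0.023). The gene lies on chromosome 16 from 95979933 to 95990960 (GRCm38, the assembly that mm10 represents; Entrez gene 56088), and the annotation places no other gene over it. Leaving out vehicle library 2, 3 or 4, or panobinostat library 5, ended the call (edgeR adjusted p from 0.060 to 0.10), while the log2 difference stayed between -0.57 and -0.41 with any 1 library left out. Its partner Psmg2 differed by -0.15 ± 0.10 (log2, SE) and was not called.

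The other core chaperones did not move as a block. Psmg4, which pairs with Psmg3, had 11.9, 9.84 and 11.8 CPM in panobinostat libraries, against 14.6, 15.4 and 14.1 CPM in vehicle libraries, with no overlap and an edgeR adjusted p of 0.072, which DESeq2 placed under the threshold. Psmg3 had 33.0, 22.4 and 25.6 CPM in panobinostat libraries against 27.0, 28.2 and 31.8 CPM in vehicle libraries, with overlap. Pomp, which closes the assembly of the core and is removed by it, had 134, 113 and 107 CPM in panobinostat libraries, against 97.7, 105 and 108 CPM in vehicle libraries, and did not pass (log2 difference 0.19 ± 0.11 SE, edgeR adjusted p = 0.25). Psmg3, Psmg4 and Pomp were chosen after their values were seen.

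Chaperones of the base hold the ATPases until the ring is closed. Psmd5 had 112, 93.6 and 104 CPM in panobinostat libraries, against 84.1, 83.7 and 92.7 CPM in vehicle libraries, and Psmd9 had 29.2, 25.2 and 26.2 CPM in panobinostat libraries, against 31.9, 29.3 and 31.4 CPM in vehicle libraries. Both were free of overlap, in opposite directions, by about 1 CPM or less between the nearest libraries. Psmd10 had 48.9, 34.8 and 37.6 CPM in panobinostat libraries against 37.4, 35.1 and 40.0 CPM in vehicle libraries, with panobinostat library 1 above all others. None of the 3 was called (0 by edgeR, DESeq2 and limma-voom, 1 at an unadjusted p under 0.05).

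Psme4, a large activator that caps the core in place of the regulatory particle, had 103, 115 and 111 CPM in panobinostat libraries, against 91.0, 91.1 and 86.6 CPM in vehicle libraries. All panobinostat libraries were above all vehicle libraries, and the difference was 1.225-fold (log2 0.29 ± 0.08 SE, 95% interval 0.10 to 0.48, edgeR adjusted p = 0.043). The gene lies on chromosome 11 from 30771775 to 30881150 (Entrez gene 103554), where its span overlaps the gene Erlec1 and a pseudogene, and with no known strand setting reads of the overlap cannot be assigned with certainty. The call rested close to the threshold: it was lost without any 1 library other than panobinostat library 1 (edgeR adjusted p from 0.094 to 0.18), without a low-count filter (0.086) and when libraries were scaled by size alone (0.16). Psmf1, a core inhibitor, had 93.2, 57.5 and 62.3 CPM in panobinostat libraries, against 56.4, 50.7 and 48.7 CPM in vehicle libraries. It had the highest log2 difference of the members, 0.45 ± 0.19 (SE), but panobinostat library 1 lay far above the others, the difference was 0.21 without it, and the gene was not called (edgeR adjusted p = 0.12). Psmf1 was chosen after its values were seen. Spans of Psma4, Psmd1, Psmd10 and Psmf1 also overlap another protein-coding gene.

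**Figure D2:**
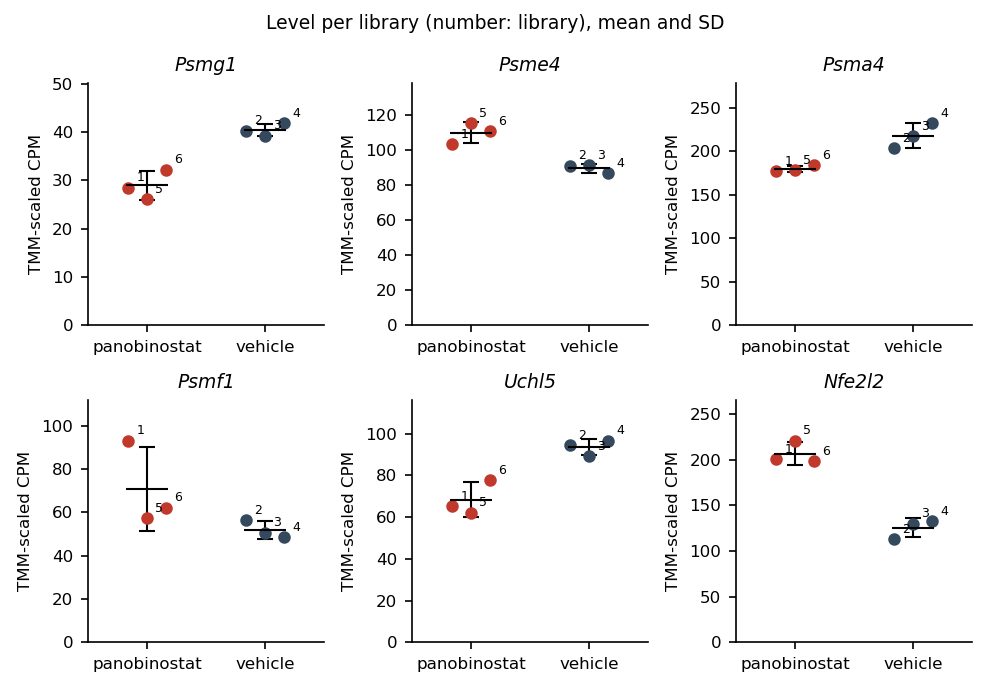
TMM-scaled CPM (vertical axes, from 0) of 6 genes in the 3 panobinostat libraries (red, left) and the 3 vehicle libraries (blue, right), each point numbered by its library, with mean and SD as black lines. Psmg1, Psma4 and Uchl5 are lower and Psme4 and Nfe2l2 higher in every panobinostat library, and Psmf1 stands out in panobinostat library 1.

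Most of the 39 genes moved together from library to library inside the panobinostat group, while Psme4 was highest in library 5 and lowest in library 1. Panobinostat library 1 had the highest value of that group in 34 of 39 members (87.2%, against 42.8% of all tested genes), and panobinostat library 5 the lowest in 32 (82.1%, against 36.2%). Over all 6 libraries, library 5 was the lowest in 29 members (74.4%, against 25.3%) and library 1 the highest in 18 (46.2%, against 27.8%). Summed over the 39 genes, the level was 5083, 4274 and 4493 CPM in panobinostat libraries 1, 5 and 6, against 4882, 4735 and 4880 CPM in vehicle libraries 2, 3 and 4, a mean of 4617 ± 418 CPM against 4832 ± 84.6 CPM (SD, n = 3 each). With TMM scaling, library 1 was thus above all vehicle libraries and libraries 5 and 6 below them. As a share of library counts, given above, all 3 panobinostat libraries were below all vehicle libraries. Those library counts include hemoglobin genes, which took 6.72% in library 1 and at most 0.847% in vehicle libraries. A share without them was not computed. In the scaled sum library 1 was 1.19-fold over library 5. Within a group the coefficient of variation of a member had a median of 10.7% in panobinostat libraries and 4.15% in vehicle libraries, against 14.3% and 8.59% over all tested genes.

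Left out of the comparison, panobinostat library 1 changed the count of called members more than any other single library did. Without it the members had a median log2 difference of -0.18 and 8 were called, 7 lower (Psma2, Psma7, Psmb2, Psmc3, Psmd12, Psmg1 and Psmg4) and Psme4 higher, while 31.1% of all tested genes were called. The summed level of the 29 subunits was 0.939 of the vehicle mean with all libraries and 0.892 without library 1. Library 1 was also the one with the most hemoglobin counts and the highest sum of 7 red pulp macrophage markers (32.8 CPM, against 13.8 and 7.50 CPM in libraries 5 and 6, and from 4.93 to 9.69 CPM in vehicle libraries; 1 of the 7 was called higher and none was at 0). Their part in the result was not tested. With globin genes alone left out of the table the same members, Psmg1 and Psme4, were called. That fit kept the other erythroid genes and the macrophage genes, so it cannot show their part. Scaling by library size alone, which shifted the median of all genes from 0.01 to -0.10, gave 7 members lower (Psma4, Psma7, Psmb2, Psmc3, Psmc6, Psmg1 and Psmg4) and none higher, while 24.8% of all tested genes were called.

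**Figure D3:**
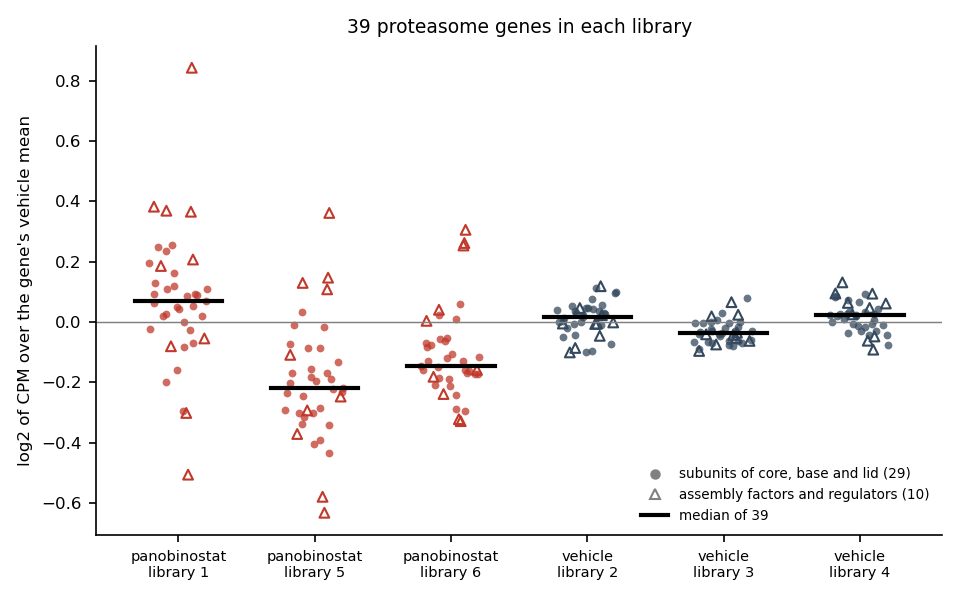
Log2 of each gene's CPM over its mean in vehicle (vertical axis) in each of the 6 libraries, panobinostat in red on the left and vehicle in blue on the right, with subunits as dots, assembly factors and regulators as open triangles and the median of 39 as a bar. The median is 0.07, -0.22 and -0.15 in panobinostat libraries 1, 5 and 6, and between -0.04 and 0.02 in vehicle libraries.

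Shares of the proteasome counts do not depend on how libraries are scaled. Taken as a percent of the counts of all 39 genes, the alpha ring held 20.4%, 20.9% and 21.0% in panobinostat libraries, against 21.3%, 21.7% and 22.6% in vehicle libraries. The base ATPases held 15.6%, 15.1% and 15.7% in panobinostat libraries, against 16.6%, 16.1% and 16.2% in vehicle libraries. Both shares were lower in every panobinostat library. The pair of core regulators, Psme4 and Psmf1, held 3.87%, 4.04% and 3.85% in panobinostat libraries, against 3.02%, 2.99% and 2.77% in vehicle libraries, and the base chaperones 3.74%, 3.59% and 3.72%, against 3.14%, 3.13% and 3.36% in vehicle libraries. These were higher in every panobinostat library, while the shares of the beta genes, the scaffold, the lid and the core chaperones overlapped between the groups. For single genes the share was below all vehicle libraries in 9 members, above them in 7 and overlapping in 23. Shares of a common total are not independent, and no such share was computed for all tested genes. In scaled CPM, 44.6% of all tested genes were free of overlap. Psmg1 made up 0.561%, 0.611% and 0.718% of member counts in panobinostat libraries, against 0.827%, 0.831% and 0.857% in vehicle libraries, and Pomp 2.63%, 2.65% and 2.37% in panobinostat libraries, against 2.001%, 2.22% and 2.22% in vehicle libraries.

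Across the 6 libraries the members followed one another. The correlation of a gene's log2 CPM with the mean of the other 38 had a median Pearson r of 0.87 and passed 0.8 in 22 genes, a description over 6 libraries that share their depth and scaling. Adrm1 (0.98), Psma3 (0.98) and Psmc4 (0.97) were nearest to the rest. Psme4 ran against it (-0.70), with Psmd5 (0.07), Pomp (0.19) and Psmf1 (0.24) next from the low end. Outside the list, genes without a symbol or with a provisional Gm, Rik or LOC name were set aside. The nearest to the mean of the members were then Ndufb10 (r = 0.996), Usp45 (r = 0.996) and Fancc (r = 0.993), each over 6 libraries. Ndufb10 is a subunit of respiratory complex I, Usp45 a deubiquitinase gene and Fancc a DNA repair gene. They are the top of a search over all tested genes, and the share of those genes over 0.8 was not computed.

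Levels between genes were compared per length, as CPM per kilobase of merged exons. The 29 subunits lay between 34.6 (Psmd11) and 155 (Psma4) CPM per kb in panobinostat libraries and between 35.2 (Psmd11) and 187 (Psma4) CPM per kb in vehicle libraries, with medians of 78.2 and 83.4. The 10 assembly factors and regulators lay between 10.3 (Psmd9) and 30.6 (Psmg3) CPM per kb in panobinostat libraries, and between 11.9 (Psmd9) and 38.8 (Psmg1) CPM per kb in vehicle libraries, with medians of 22.8 and 22.6. In the panobinostat group every subunit mean was above every assembly factor mean, and in the vehicle group Psmg1 alone reached above the lowest subunit. The lengths include alternative exons, which lowers the value of genes with long variants such as Psmb1, Psma2 and Pomp. Before length scaling the ranges overlapped. In panobinostat libraries subunit means started at 81.1 CPM, and means of assembly factors and regulators reached 118 CPM. In vehicle libraries these values were 94.9 and 104 CPM.

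**Figure D4:**
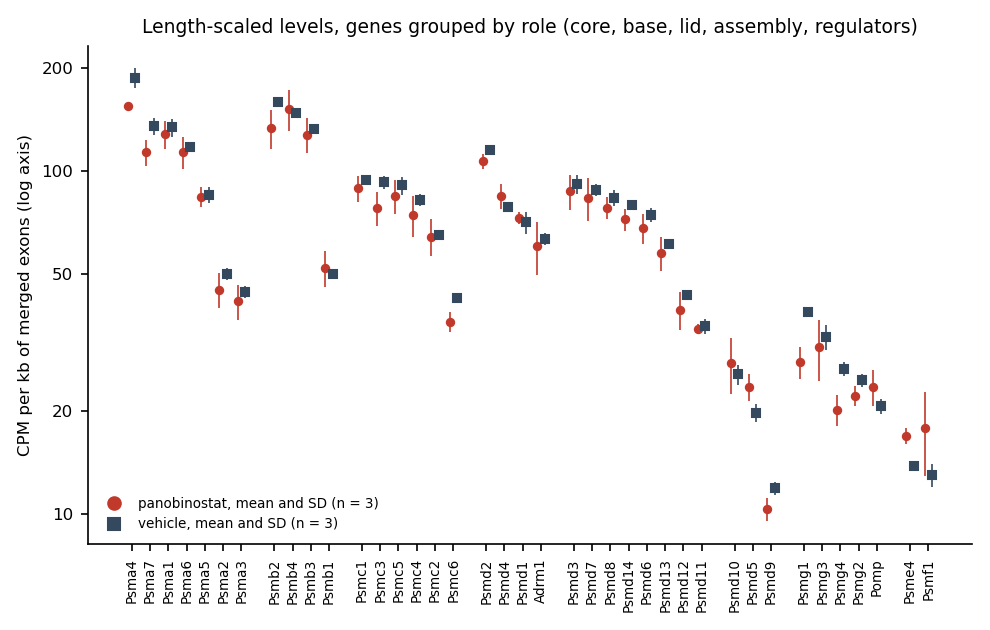
CPM per kb of merged exons (vertical log axis) of the 39 genes, grouped by role from left to right (alpha ring, beta ring, base ATPases, base scaffold, lid, base chaperones, core chaperones, regulators), with red dots for panobinostat and blue squares for vehicle, mean and SD of 3 libraries each. Subunits lie between 34.6 and 187 and assembly factors and regulators between 10.3 and 38.8.

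RefSeq promoter windows (GRCm38.p6, 250 bases before to 50 after a start site) matched 33 of the 39 genes, with 35 windows, and Psmb1, Psmb2, Psmc3, Psmd3, Psmd7 and Psmg2 had no entry. The windows were searched on both strands for 3 motifs: CCGGAA, a binding core of ETS factors, chosen after the windows had been read; CCAAT, the site of NF-Y; and TGANNNNGC, the core of the antioxidant response element bound by Nfe2l1 and Nfe2l2. CCGGAA was in 22 of the 35 windows (62.9%), against 27.9% of 12239 windows of tested genes and 14.9% of all 32851 windows. CCAAT was in 12 (34.3%, against 38.5% and 37.4%), and TGANNNNGC in 19 (54.3%, against 43.2% and 41.3%). A match is a run of letters and not a bound site. CCGGAA was chosen from these same windows, so its higher share in them is a description and no test. Shown are the windows of Psmg1 and Psme4, the members that passed, of Psma4, the subunit with the lowest log2 difference, and of Psmb4, a subunit whose mean differed little. They are at chr16:95990911-95991210 (minus strand), chr11:30771525-30771824 (plus strand), chr9:54950609-54950908 (plus strand) and chr3:94886909-94887208 (minus strand), with matches to any of the 3 motifs in capitals, none of them overlapping.
Psmg1: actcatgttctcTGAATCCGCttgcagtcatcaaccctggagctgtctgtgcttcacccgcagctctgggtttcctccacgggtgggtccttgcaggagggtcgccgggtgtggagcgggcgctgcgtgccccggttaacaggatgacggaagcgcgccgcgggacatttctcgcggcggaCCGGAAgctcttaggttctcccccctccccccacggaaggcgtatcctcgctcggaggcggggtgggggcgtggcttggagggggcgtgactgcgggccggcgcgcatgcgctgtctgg
Psme4: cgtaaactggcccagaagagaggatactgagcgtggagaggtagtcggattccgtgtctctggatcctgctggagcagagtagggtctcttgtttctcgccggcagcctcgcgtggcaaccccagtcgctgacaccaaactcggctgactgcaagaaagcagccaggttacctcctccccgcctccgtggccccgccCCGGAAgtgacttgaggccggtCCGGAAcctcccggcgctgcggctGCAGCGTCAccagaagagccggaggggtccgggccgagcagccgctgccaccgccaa
Psma4: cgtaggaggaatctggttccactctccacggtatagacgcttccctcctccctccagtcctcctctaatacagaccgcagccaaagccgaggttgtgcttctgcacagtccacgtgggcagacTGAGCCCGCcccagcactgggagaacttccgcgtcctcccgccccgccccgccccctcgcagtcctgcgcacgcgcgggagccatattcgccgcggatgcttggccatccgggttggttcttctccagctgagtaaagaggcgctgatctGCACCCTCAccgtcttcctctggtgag
Psmb4: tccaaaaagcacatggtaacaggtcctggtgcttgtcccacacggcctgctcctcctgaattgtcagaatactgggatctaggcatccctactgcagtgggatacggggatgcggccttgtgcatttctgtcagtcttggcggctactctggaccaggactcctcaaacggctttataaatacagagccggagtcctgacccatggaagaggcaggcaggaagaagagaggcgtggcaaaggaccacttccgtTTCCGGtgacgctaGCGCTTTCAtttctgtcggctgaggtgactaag
Psmg1, which fell, and Psme4, which rose, both held CCGGAA and TGANNNNGC. Psma4 held only TGANNNNGC, and Psmb4 held both motifs just after its start site.

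Genes that work with the proteasome were read from a list of 39 related genes, of which 35 were tested. Of these 4 fell and 1 rose, while 9.72% of all tested genes were called lower and 11.3% higher. The share of the list that fell was close to that background and the share that rose was under it, so the counts do not set the list apart. Nfe2l2, a stress-activated transcription factor of the same family as Nfe2l1, had 200.4, 221 and 198 CPM in panobinostat libraries, against 113, 130 and 133 CPM in vehicle libraries. The groups were far apart and the gene rose 1.65-fold (log2 0.72 ± 0.10 SE, edgeR adjusted p = 0.0063), a call that held in all 15 alternatives. Nfe2l1, known for inducing proteasome genes when the proteasome is blocked, had 81.5, 96.2 and 95.4 CPM in panobinostat libraries against 92.5, 87.3 and 80.8 CPM in vehicle libraries, with overlap and a log2 difference of 0.07 ± 0.10 (SE, 95% interval -0.17 to 0.30). Ngly1, the glycanase that acts on Nfe2l1, had 67.3, 73.2 and 67.4 CPM in panobinostat libraries, against 87.2, 88.5 and 84.1 CPM in vehicle libraries, and fell 1.249-fold (edgeR adjusted p = 0.032).

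Both deubiquitinases that dock on the regulatory particle fell. Uchl5, which binds Adrm1, had 65.2, 62.1 and 77.9 CPM in panobinostat libraries, against 94.6, 89.2 and 96.7 CPM in vehicle libraries (1.37-fold lower, log2 -0.45 ± 0.11 SE, edgeR adjusted p = 0.027). Usp14, which binds the base, had 143.5, 126 and 138 CPM in panobinostat libraries, against 179, 163 and 163 CPM in vehicle libraries (1.24-fold lower, edgeR adjusted p = 0.048, over the threshold in 8 of 15 alternatives). Ubqln1, a shuttle that brings ubiquitinated proteins to the proteasome, had 204, 196 and 211 CPM in panobinostat libraries, against 255, 249.7 and 282 CPM in vehicle libraries (1.29-fold lower, edgeR adjusted p = 0.030). In all 3 every panobinostat library was below every vehicle library. Without any 1 vehicle library none of the 4 genes that fell was called (edgeR adjusted p from 0.065 to 0.14). Without panobinostat library 5 only Ngly1 of these 4 was called, and without panobinostat library 6 only Uchl5.

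The catalytic and immune subunits, outside the list, held 0 of 6 called genes (0 by DESeq2 and limma-voom, 0 at an unadjusted p under 0.05), with log2 differences from -0.20 for Psmb5 to 0.22 for Psmb8, but 4 were called without panobinostat library 1 (Psmb5, Psmb6 and Psmb7 lower and Psmb8 higher), in a comparison that called 31.1% of all tested genes. The activator genes Psme1 and Psme2 were at 241 ± 43.4 and 137 ± 17.2 CPM in panobinostat libraries (SD, n = 3 each). In vehicle libraries they were at 186 ± 1.89 and 109 ± 3.75 CPM. They did not pass in edgeR (adjusted p = 0.081 and 0.068) but did in DESeq2, which called 27.6% of all tested genes.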

How the data were processed

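The authors deposited 1 table of raw counts, with a row for each Entrez gene and a column for each library. The submitters' processing notes name HISAT2 2.1.0, featureCounts (Subread 2.0.0), cutadapt 2.1, FastQC 0.11.6, bcl2fastq 2.17.1.14, limma and the mouse build mm10, without their order. Per the labels' protocols, libraries were made with a TruSeq RNA kit. The sources used here give neither the gene annotation, nor whether strand was used, nor how multi-mapping reads were treated, so reads of overlapping genes or processed pseudogenes cannot be separated.

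Columns were tied to groups by the words treated and control in their names. Names came from RefSeq (GRCm38.p6) by Entrez ID for 25275 of 27179 genes. Genes were filtered with filterByExpr and scaled by TMM factors, and the treatment effect was tested in edgeR 4.0.16 (R 4.3.3) with the quasi-likelihood F test, treatment as the only term, Benjamini-Hochberg adjustment over 12916 genes. Standard errors are the absolute log2 difference divided by the square root of F, and intervals use the fit's total degrees of freedom. Levels are TMM-scaled CPM computed here, and exon lengths are from the basic set of GENCODE M21.

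The members, roles and lists were chosen with earlier results of these data known. All members are accounted for. Values per library are given for called members, for the 3 with the smallest p in each role without a call, for related genes that were called and for Nfe2l1. Alternatives were DESeq2 1.42.0, limma-voom (limma 3.58.1), 3 other scalings, 2 other filters, robust shrinkage, a table without globin genes and leaving out each library. Protein sequences were not used here.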

Additional observations from a re-analysis of the deposited data

How the results depend on the processing

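No paired analysis was possible because the count columns name the group but no replicate number of the labels. The count of called genes over all tested genes ranged from 438 to 4056 when 1 library was left out, against 2715. Members called lower ranged from 0 to 7 when 1 library was left out, against 1. They were 3 with DESeq2 and 7 with library size alone. In either direction DESeq2 called 4 of the 39 members, against 27.6% of all tested genes. The share of all tested genes called was 24.8% with library size alone and 13.6% with no low-count filter. It ran from 3.32% to 31.1% when 1 library was left out. Members called higher ranged from 0 to 1 when 1 library was left out, and were 0 with library size alone and 0 with no low-count filter, against 1. Related genes called lower ranged from 0 to 8 when 1 library was left out and were 8 with library size alone, against 4, and those called higher ranged from 1 to 2 and were 3 with DESeq2, against 1. With 2 libraries left in a group the test rests on fewer samples. The median log2 difference of the members stayed below 0 in all 15 alternatives, from -0.19 with library size alone to -0.03 without panobinostat library 5. Sign changes were among genes that were not called. With library size alone they were Psmb1 at -0.048, Psmb4 at -0.065, Psmd1 at -0.062, Psmd4 at -0.0067, Psmd10 at -0.00011 and Nfe2l1 at -0.038. With the stricter low-count filter they were Psma5 at 0.0070, Psmc2 at 0.0092 and Psmd11 at 0.0011. With 1 library left out the log2 difference ranged from -0.078 to 0.023 for Psma5, from -0.14 to 0.0048 for Psma6, from -0.042 to 0.13 for Psmb1, from -0.15 to 0.0045 for Psmb3, from -0.074 to 0.10 for Psmb4, from -0.12 to 0.059 for Psmc2, from -0.21 to 0.034 for Adrm1, from -0.17 to 0.00022 for Psmd3, from -0.18 to 0.028 for Psmd7, from -0.060 to 0.013 for Psmd11, from -0.050 to 0.21 for Psmd10 and from -0.27 to 0.013 for Psmg3. The cause was not tested. Every member had at least 244 counts in every library, and each group had 3 libraries.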

Other observations

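Psmb11, the catalytic subunit of the thymus proteasome, had 1 or 2 counts in every library and was not tested.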
